A study of Mus musculus with 9 samples.

Results

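The genes described here are 10 that encode lysosomal proteins or mark a disease-associated state of microglia, the resident immune cells of the brain. They are Cst3, Ctsb, Ctsd, Ctsl, Ctss, Ctsz, Lgmn, Cd68, Trem2 and Tyrobp, matched by symbol, and all 10 were found in the count tables. They were selected on measured expression in these same libraries, as known from earlier results, with no contrast or threshold on record. Their values are therefore descriptions and not independent evidence of a direction. Single nuclei of pooled cortex and hippocampus were profiled from 9 male C57BL/6 mice, 1 library per mouse, and RNA molecules were counted by their unique molecular identifiers (UMIs). All 3 groups received an adeno-associated virus (AAV) by vein 8 weeks before the tissue was taken. Its capsid favours brain vessels and its promoter is active in endothelial cells, so microglia were not the intended target. B3GNT3 is a glycosyltransferase that adds N-acetylglucosamine to O-glycans of mucin-domain proteins. The young AAV-EGFP mice (5 months old at collection, n = 3) and the aged AAV-EGFP mice (19 months, n = 3) received the fluorescent protein EGFP alone as a control. The aged AAV-B3GNT3 mice (19 months, n = 3) received EGFP together with B3GNT3. Per the paper's methods, aged mice came from a National Institute on Aging colony and young mice from Jackson Laboratories. Age and supplier therefore cannot be told apart in the differences described below as with age. Nuclei were sorted before capture, and RNA that stays in the cytoplasm is largely lost from such samples.

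Lysosomes break down what a cell takes up or recycles, and microglia rely on them to digest debris, myelin and dead cells. Cathepsins B, L, S and Z (Ctsb, Ctsl, Ctss, Ctsz) are cysteine proteases, cathepsin D (Ctsd) is an aspartic protease, and legumain (Lgmn) is an asparaginyl endopeptidase that matures cathepsins. Cystatin C (Cst3) is a secreted inhibitor of cysteine cathepsins. Cd68 is a glycosylated protein of the late endosome and lysosome. Trem2 is a surface receptor for lipids and lipoproteins, and Tyrobp (DAP12) is the adaptor through which it signals. In disease models, microglia with raised Trem2-dependent genes, several cathepsins and Apoe, and lowered homeostatic genes, have been named disease-associated microglia.

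The positions of the 10 genes were read from the GENCODE vM21 annotation of GRCm38, the build of the files, in which all 10 are protein-coding and carry the same identifiers as the tables. Cst3 (ENSMUSG00000027447) lies on the minus strand at chr2:148871722-148875692. Ctsd (ENSMUSG00000007891) lies on the minus strand at chr7:142375911-142388038, and Ctss (ENSMUSG00000038642) on the plus strand at chr3:95526786-95556403. Ctsz shares part of its span with Nelfcd on the other strand, Ctsb with Fdft1 and Ctsl with Gm47123. Ctsd overlaps Gm49369 on the same strand, and how reads from that overlap were counted was not examined. RefSeq promoter sequences (GRCm38.p6, 250 bases before to 50 after the start) matched 8 of the 10 genes, with 2 entries for Lgmn. The 3 printed here are those of Cst3, the member with the largest differences between groups, of Ctsd, whose promoter holds 2 E-boxes, and of Ctss, whose level differs most between microglia and other classes. They were searched on both strands for the E-box CACGTG, the core of the element bound by the lysosomal regulator TFEB. The other patterns were GAGGAAGT, a form of the PU.1 site, and TGANTCA, a loose form of the AP-1 site. Capitals mark matches.
Cst3, chr2:148875463-148875762, minus strand: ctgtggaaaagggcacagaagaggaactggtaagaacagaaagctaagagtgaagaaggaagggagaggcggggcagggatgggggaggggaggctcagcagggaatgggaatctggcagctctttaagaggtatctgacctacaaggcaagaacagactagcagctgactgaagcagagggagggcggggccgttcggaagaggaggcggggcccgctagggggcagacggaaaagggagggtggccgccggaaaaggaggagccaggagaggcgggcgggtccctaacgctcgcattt
Ctsd, chr7:142387778-142388077, minus strand: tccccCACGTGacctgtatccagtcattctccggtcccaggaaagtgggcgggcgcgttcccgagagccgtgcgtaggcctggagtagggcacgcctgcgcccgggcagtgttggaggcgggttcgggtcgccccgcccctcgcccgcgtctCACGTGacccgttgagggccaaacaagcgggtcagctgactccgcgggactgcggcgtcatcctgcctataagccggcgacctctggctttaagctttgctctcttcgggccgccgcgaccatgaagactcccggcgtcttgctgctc
Ctss, chr3:95526536-95526835, plus strand: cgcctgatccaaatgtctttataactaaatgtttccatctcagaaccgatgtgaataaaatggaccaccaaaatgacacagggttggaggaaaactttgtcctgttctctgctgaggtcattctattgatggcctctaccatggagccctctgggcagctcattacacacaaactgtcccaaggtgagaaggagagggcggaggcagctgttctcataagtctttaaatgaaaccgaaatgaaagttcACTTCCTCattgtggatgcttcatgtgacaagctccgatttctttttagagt
The E-box occurred in 3 of the 8 members with a promoter entry (Ctsd, Ctsl and 1 of the 2 Lgmn windows). Of the 32851 promoters of this length that were searched, 7.15% held it, a share per promoter and not per gene. The PU.1 form occurred in 1 (Ctss), against 3.202%. The loose AP-1 form occurred in 2 (Cd68, as TGAGTCA, and Trem2, as TGAATCA), against 7.81%. The Cst3 window held none of the 3 motifs. A match is a run of letters and was not tested as a binding site.

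Of 70293 nuclei kept, 1929 fell in 1 cluster with all 8 microglia markers, none of which is a member. Inpp5d and Siglech were among its 10 leading genes. The 9 libraries held 109 to 333 microglia nuclei and 259715 to 554844 microglia UMIs, with 47332047 to 79964605 UMIs in all. The median microglia nucleus held 1867.5 to 2114 UMIs in young AAV-EGFP libraries, 1279 to 1598 in those of aged AAV-EGFP mice and 1538 to 2074 in those of aged AAV-B3GNT3 mice. A separate cluster of 544 nuclei carried microglia and oligodendrocyte markers with a mean doublet score of 0.687, and was left out. Its size ran from 5 nuclei (young AAV-EGFP replicate 1) to 116 (replicate 2 of the same group). Of the kept microglia nuclei, 26 had a UMI of a border macrophage marker, and 48 had a barcode sequence that was also present in another library. Levels are counts-per-million values (CPM) of UMIs summed over the microglia nuclei of a library and scaled by the TMM method, and fold changes, standard errors (SE) and adjusted p-values come from edgeR's quasi-likelihood fit over 7492 genes. In sums, fewer molecules per nucleus and a smaller part of nuclei that express a gene cannot be told apart. The values per nucleus given further on do not settle this, since at this depth a nucleus with no UMI of a gene may still express it.

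Cst3 was the 1 member called between groups in microglia. Its level in microglia was 262, 177 and 228 CPM in the young AAV-EGFP libraries, 496, 668 and 730 CPM in the aged AAV-EGFP libraries, and 152, 174 and 176 CPM in the aged AAV-B3GNT3 libraries. Every aged AAV-EGFP library lay above every other library. The highest aged AAV-B3GNT3 library (175.6 CPM) and the lowest young library (176.8 CPM) were almost level. Cst3 was 2.83-fold higher in aged than in young AAV-EGFP microglia (log2 1.499, SE 0.19, adjusted p = 0.00243). It was 3.77-fold lower in aged AAV-B3GNT3 than in aged AAV-EGFP microglia (log2 −1.91, SE 0.19, adjusted p = 7.57e-05). The difference between aged AAV-B3GNT3 and young AAV-EGFP, at log2 −0.42 (SE 0.20), did not pass (adjusted p = 0.572). These comparisons share libraries, and the aged AAV-EGFP mice stand in both of the first pair. Both Cst3 calls were also made without each library in turn, and both were lost when the mixed microglia and oligodendrocyte cluster was added (log2 1.48, adjusted p = 0.267, and log2 −1.67, adjusted p = 0.472).

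**Figure D1:**
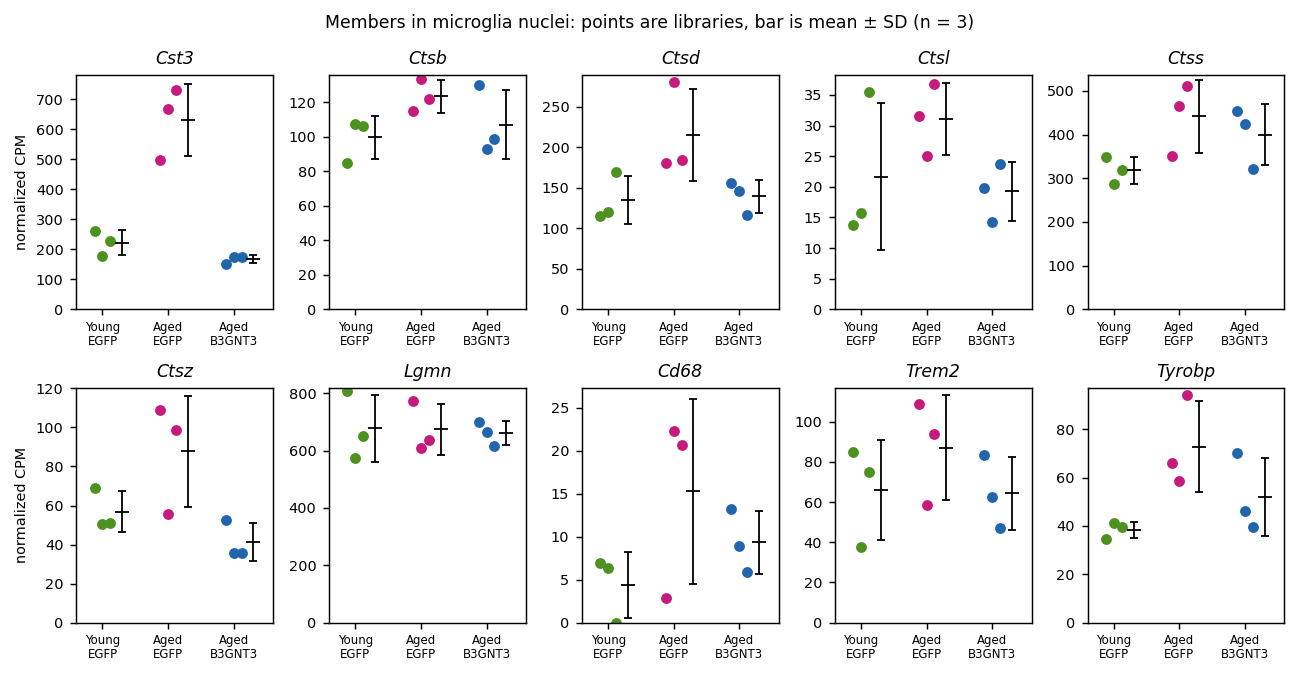
Level of each member in microglia nuclei (vertical axis, normalized CPM from 0) in the 3 groups; points are libraries, and the bar beside them is the mean ± SD (n = 3). In Cst3 the aged AAV-EGFP libraries (496 to 730 CPM) lie apart from all others (152 to 262 CPM), and in Lgmn the 3 groups lie over each other.

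The cysteine cathepsins did not pass in either comparison. Ctss, which stays active at neutral pH, was at 349, 287 and 319 CPM in young, 350, 465 and 512 CPM in aged AAV-EGFP, and 455, 424 and 322 CPM in aged AAV-B3GNT3 libraries. The aged AAV-EGFP libraries were just above the young ones (log2 0.47, SE 0.18, adjusted p = 0.159), while the aged groups overlapped (log2 −0.15, SE 0.18, adjusted p = 0.817). Without aged AAV-EGFP replicate 1 the difference of Ctss with age was log2 0.61 and passed (adjusted p = 0.0429). Ctsz, a carboxypeptidase, was at 68.9, 50.5 and 51.2 CPM in young, 109, 55.6 and 98.7 CPM in aged AAV-EGFP, and 52.7, 35.6 and 35.5 CPM in aged AAV-B3GNT3 libraries. Each treated library was below each aged control library (log2 −1.10, SE 0.29), but the adjusted p was 0.123. Ctsb, a broad endo- and carboxypeptidase, had means of 99.6 ± 12.6 CPM in young, 123 ± 9.51 CPM in aged AAV-EGFP and 107 ± 19.9 CPM in aged AAV-B3GNT3 libraries (SD, n = 3). Its log2 differences were 0.32 with age (SE 0.22, adjusted p = 0.429) and −0.21 with B3GNT3 (SE 0.21, adjusted p = 0.767). Ctsl rested on 5 to 16 UMIs per library, and its log2 differences were 0.62 with age (SE 0.44, adjusted p = 0.443) and −0.71 with B3GNT3 (SE 0.41, adjusted p = 0.555). With B3GNT3 its groups did not overlap, at 25.04 to 36.7 CPM against 14.2 to 23.7 CPM. Ctsl passed the filter on low counts only with the aged AAV-EGFP libraries counted, where it was high, so this gap is only a description.

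Ctsd, the aspartic protease, was at 115, 120 and 169 CPM in young, 181, 281 and 184 CPM in aged AAV-EGFP, and 156, 146 and 116 CPM in aged AAV-B3GNT3 libraries. The 3 aged control libraries were the highest of the 9, with replicate 2 apart from the other 2. The differences were log2 0.69 with age (SE 0.23, adjusted p = 0.102) and −0.62 with B3GNT3 (SE 0.22, adjusted p = 0.286). Without aged AAV-EGFP replicate 1 the difference with age was log2 0.79 and passed (adjusted p = 0.0429). Lgmn, the asparaginyl endopeptidase, was at 806, 575 and 650 CPM in young, 774, 609 and 638 CPM in aged AAV-EGFP, and 701, 666 and 618 CPM in aged AAV-B3GNT3 libraries. Its groups overlapped in full, and its log2 differences were −0.01 (SE 0.16, adjusted p = 0.982) and −0.03 (SE 0.16, adjusted p = 0.973).

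The receptor Trem2 was at 85.0, 37.9 and 74.8 CPM in young, 109, 58.4 and 94.1 CPM in aged AAV-EGFP, and 83.5, 62.3 and 47.4 CPM in aged AAV-B3GNT3 libraries. All groups overlapped, with log2 differences of 0.39 (SE 0.32, adjusted p = 0.529) and −0.45 (SE 0.30, adjusted p = 0.635). Its adaptor Tyrobp was at 34.5, 41.0 and 39.4 CPM in young, 66.0, 58.4 and 94.1 CPM in aged AAV-EGFP, and 70.3, 46.3 and 39.5 CPM in aged AAV-B3GNT3 libraries. The aged AAV-EGFP libraries were above the young ones (log2 0.95, SE 0.32, adjusted p = 0.101), and the aged groups overlapped (log2 −0.51, SE 0.28, adjusted p = 0.536). Cd68 was too sparse for the test, with 5 UMIs in the microglia of young, 18 in those of aged AAV-EGFP and 14 in those of aged AAV-B3GNT3 mice. In unscaled CPM over each group this is 4.85 (95% exact Poisson interval 1.58 to 11.3), 15.9 (9.41 to 25.1) and 9.36 (5.12 to 15.7), and these intervals cover counting error only. Its libraries overlapped between the groups, from 0 UMIs in young AAV-EGFP replicate 3 to 9 in aged AAV-EGFP replicate 3, so a difference in Cd68 was not detectable at this depth.

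Of the 10 members, 9 passed the filter on low counts. With age, 1 of the 9 was called higher and 0 lower, where 1.62% and 1.24% of all 7492 genes were called. The groups lay apart, with the aged higher, for 5 members (Cst3, Ctsb, Ctsd, Ctss and Tyrobp), against 12.1% of all genes, and the median log2 difference of the 9 was 0.60 against −0.01 over all genes. With B3GNT3, 1 was called lower and 0 higher, where 0.133% and 0.0267% of all genes were called. The groups lay apart, with the treated lower, for 4 members (Cst3, Ctsd, Ctsl and Ctsz), against 8.69% of all genes, and the median was −0.51 against 0.02. Of these, Ctsl passed the filter only with the aged AAV-EGFP libraries counted, the group where it was high, so its place among the 4 carries no weight. Between aged AAV-B3GNT3 and young AAV-EGFP microglia edgeR called 0 members and 0.00% of all genes (650 at an unadjusted p under 0.05), DESeq2 called 6 genes, and the median of the 9 was −0.04.

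Several general signals moved with the aged AAV-EGFP group in the same microglia sums. The 13 mitochondrial genes together made up 187 to 273 CPM in aged AAV-EGFP libraries, 46.2 to 101 in young and 92.5 to 135 in aged AAV-B3GNT3 libraries. The 83 genes of cytosolic ribosomal proteins made up 2446 to 3658 CPM in aged AAV-EGFP, 1525 to 1794 in young and 1604 to 2008 in aged AAV-B3GNT3 libraries. The 8 microglia markers themselves made up 6917 to 8574 CPM in aged AAV-EGFP, 4920 to 6012 in young and 6321 to 7417 in aged AAV-B3GNT3 libraries. In the first and second of these sums the aged AAV-EGFP libraries did not overlap the others, as for Cst3, and their part in the Cst3 result was not tested. Markers of neurons, astrocytes and oligodendrocytes were all present, none of the 22 at 0. The 6 astrocyte markers made up 503 to 783 CPM in aged AAV-EGFP, 653 to 905 in young and 549 to 788 in aged AAV-B3GNT3 libraries, which overlap. The 5 oligodendrocyte precursor markers (90.2 to 249, 269 to 378 and 285 to 330 CPM in the same order) and the 5 inhibitory neuron markers (224 to 393, 420 to 747 and 465 to 663 CPM) were lower in every aged AAV-EGFP library than in any other. The 6 border macrophage markers made up 2.73 to 7.32, 9.15 to 11.6 and 6.77 to 12.6 CPM in the same order.

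**Figure D2:**
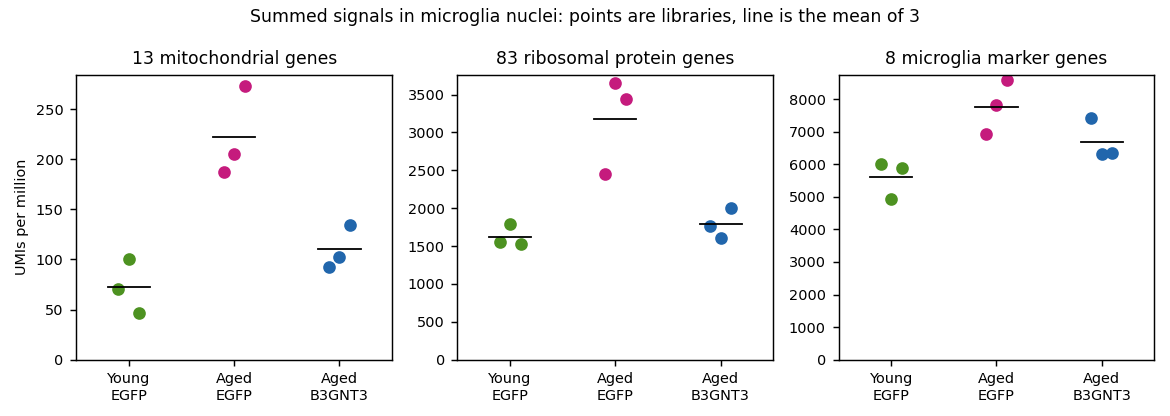
Summed CPM (vertical axes, from 0) of 13 mitochondrial genes, 83 cytosolic ribosomal protein genes and 8 microglia marker genes in microglia nuclei; points are libraries and lines the mean of 3. The aged AAV-EGFP libraries lie above all others in the first and second panels (187 to 273 and 2446 to 3658).

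RNA released from other cells could add counts of a gene to microglia nuclei, so its share was estimated from the markers of neurons, astrocytes and oligodendrocytes. This gave 46.7, 51.5 and 44.7% of microglia UMIs in young, 31.4, 42.1 and 31.9% in aged AAV-EGFP and 43.3, 41.2 and 45.0% in aged AAV-B3GNT3 libraries, an estimate that also counts any doublets left. The aged AAV-EGFP libraries were below the young ones, and 2 of the 3 were below every aged AAV-B3GNT3 library, so this share too moved with the group in which Cst3 was highest. Of the UMIs of the members, it took 2.95 to 13.3% for Cst3, 1.89 to 4.51% for Ctsd, 0.361 to 0.840% for Ctss and 8.34 to 25.3% for Ctsl. The RNA subtracted had the profile of all barcodes of each library, and no profile of empty droplets was used. With these counts subtracted, Cst3 was still called in both comparisons. Free RNA of another makeup than this profile was not tested. Of the genes described further on, Fth1 then lost its calls with age (log2 1.496, adjusted p = 0.0925) and with B3GNT3 (log2 −1.723, adjusted p = 0.0964). Cd9 lost its call with age (log2 1.251, adjusted p = 0.120), as did P2ry12 (log2 0.74, adjusted p = 0.0822).

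The number of Cst3 molecules per nucleus was then counted. In young AAV-EGFP microglia 64.2, 74.0 and 65.1% of nuclei had no Cst3 UMI, against 54.7, 48.8 and 47.1% of aged AAV-EGFP nuclei and 75.3, 78.4 and 71.7% of aged AAV-B3GNT3 nuclei. The share with 3 or more was 6.40 to 14.6% in aged AAV-EGFP, 2.67 to 3.30% in young and 0.897 to 2.28% in aged AAV-B3GNT3 libraries. Among nuclei with any Cst3 UMI the mean number was 1.88 to 2.504 in aged AAV-EGFP, against 1.44 to 1.53 in young and 1.25 to 1.44 in aged AAV-B3GNT3 libraries. Both the share of nuclei and the number per positive nucleus were therefore highest in the aged AAV-EGFP libraries. Both values also rise when every nucleus holds more Cst3, so they do not separate a higher level from more expressing nuclei.

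**Figure D3:**
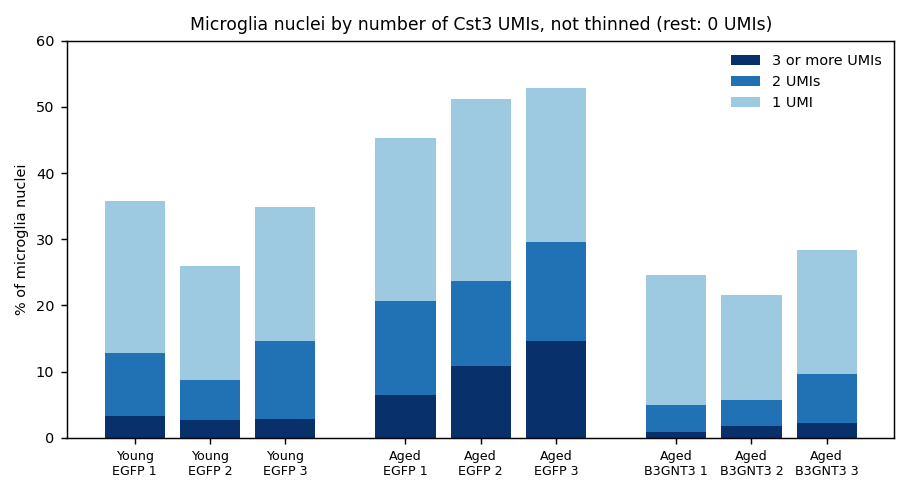
Percentage of microglia nuclei (vertical axis) in each library with 1, 2, or 3 or more Cst3 UMIs, before thinning; the rest have 0. The stacks reach 45.3 to 52.9% in aged AAV-EGFP, 26.0 to 35.8% in young and 21.6 to 28.3% in aged AAV-B3GNT3 libraries.

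Because aged AAV-EGFP nuclei held fewer UMIs, shares were also set to 1000 UMIs per nucleus, which left out 128 of 683 aged AAV-EGFP, 14 of 471 young and 37 of 775 aged AAV-B3GNT3 nuclei. A Cst3 UMI was then present in 22.6, 16.0 and 20.1% of young, 34.8, 44.5 and 42.5% of aged AAV-EGFP and 13.6, 14.6 and 15.7% of aged AAV-B3GNT3 microglia nuclei. In excitatory neurons, which hold little Cst3, the same share was 1.07 to 2.27% in young, 2.34 to 2.90% in aged AAV-EGFP and 1.34 to 1.58% in aged AAV-B3GNT3 libraries. In astrocytes it was 17.0 to 22.7, 36.1 to 46.2 and 17.3 to 20.7% in the same order. The thinned share for Ctss was 25.9 to 28.5% in young, 32.7 to 38.2% in aged AAV-EGFP and 26.7 to 36.3% in aged AAV-B3GNT3 libraries, against 0.0189 to 0.0855% in excitatory neurons. Before thinning, the Ctss share in aged AAV-EGFP was 44.2 to 53.8%, against 45.3 to 49.1% in young libraries. For Lgmn the thinned shares were 44.5 to 55.3, 43.1 to 53.3 and 47.1 to 49.96% in young, aged AAV-EGFP and aged AAV-B3GNT3 libraries, and those groups overlapped. Tyrobp was present after thinning in 3.16 to 4.39% of young, 5.08 to 9.32% of aged AAV-EGFP and 4.70 to 7.83% of aged AAV-B3GNT3 nuclei.

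Across 8 classes of nuclei, 8 members were highest in microglia by mean CPM over the 9 libraries, as a description, since clusters were formed from the same nuclei. Ctss was at 387 CPM in microglia and 3.92 CPM in pericytes, the next class. Tyrobp stood at 54.4 against 0.933 CPM, Trem2 at 72.5 against 1.84 CPM, and Lgmn at 671 CPM against 70.4 CPM in oligodendrocytes. Ctsd was at 163 CPM against 37.7 CPM and Ctsb at 110 CPM against 48.5 CPM in brain endothelial cells, and all of these were higher in microglia in 9 of 9 libraries. Cst3 was instead at 382 CPM in astrocytes and 340 CPM in microglia, with astrocytes higher in 8 of 9 libraries. Ctsl was at 24.9 CPM in brain endothelial cells and 24.003 CPM in microglia, which could not be told apart (microglia higher in 4 of 9).

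The Cst3 differences were not limited to microglia. Astrocytes were at 265, 264 and 200 CPM in young, 548, 840 and 738 CPM in aged AAV-EGFP and 214, 181 and 188 CPM in aged AAV-B3GNT3 libraries. Cst3 rose there with age (log2 1.54, SE 0.17, adjusted p = 0.000208) and was lower with B3GNT3 (log2 −1.87, SE 0.17, adjusted p = 0.000144). Brain endothelial cells, the cells that the promoter targets, were at 150, 215 and 171 CPM in young, 486, 358 and 367 CPM in aged AAV-EGFP and 101, 125 and 153 CPM in aged AAV-B3GNT3 libraries. The aged control libraries again stood above all others. So did the sum of the 6 endothelial markers, at 10780 to 15285 CPM against 7749 to 9387 in young and 8502 to 9621 in aged AAV-B3GNT3 libraries, and its part in the Cst3 values was not tested. Cst3 was called with B3GNT3 (log2 −1.67, SE 0.27, adjusted p = 0.0205) but not with age (log2 1.17, SE 0.26, adjusted p = 0.0616). In oligodendrocytes and in their precursors Cst3 was called lower with B3GNT3 (log2 −1.11, SE 0.27, adjusted p = 0.0372, and log2 −1.22, SE 0.23, adjusted p = 0.0273). In excitatory neurons, inhibitory neurons and pericytes it was not (adjusted p = 0.0521, 0.131 and 0.0894), with log2 values of −1.01, −0.98 and −1.30. DESeq2 called it in excitatory and inhibitory neurons (adjusted p = 0.00198 and 0.0131), as did a fit of only the groups compared (adjusted p = 0.0352 and 0.0238), and with no filter on low counts it was called in pericytes (adjusted p = 0.0151). Over all alternatives it was called in 5 of 20 in excitatory neurons, 3 of 14 in inhibitory neurons and 2 of 14 in pericytes.

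In all 8 classes the aged AAV-B3GNT3 libraries lay below each aged AAV-EGFP library for Cst3. Of all genes this held for 8.69% in microglia, 12.3% in astrocytes, 7.87% in brain endothelial cells, 12.7% in excitatory neurons, 11.8% in inhibitory neurons, 16.0% in oligodendrocytes, 9.27% in their precursors and 8.55% in pericytes. Cst3 was called lower in 5 classes by the main test. The share of all genes called lower was 0.133, 2.85, 0.146, 1.52, 0.117, 5.0, 0.220 and 0.612% in that order. With age Cst3 was called in 2 of 8 classes, microglia and astrocytes, where 1.62% and 4.86% of genes were called higher (0.0209% in brain endothelial cells, 7.60% in excitatory and 2.5% in inhibitory neurons, 10.6% in oligodendrocytes, 0.718% in their precursors and 3.45% in pericytes), and its log2 difference was above 0 in all 8, from 0.46 to 1.54. It was also called in brain endothelial cells with no filter on low counts (adjusted p = 0.0494) or without aged AAV-EGFP replicate 1 (adjusted p = 0.0323), and in pericytes without young AAV-EGFP replicate 2 (log2 1.31, adjusted p = 0.0494). These were 2 of 14 alternatives in brain endothelial cells and 1 of 14 in pericytes. Young AAV-EGFP replicate 3 was the lowest young library in 6 of these classes, with 9.80 CPM in excitatory neurons against 17.8 and 21.2 CPM in the other 2. The classes come from the same 9 mice and share each library's free RNA, so they are not separate replicates. The astrocyte calls held without each library in turn. The call in brain endothelial cells held without 4 of the 9 and was lost without aged AAV-EGFP replicate 3, each aged AAV-B3GNT3 replicate or young AAV-EGFP replicate 2 (log2 −1.79 to −1.498 without each library, highest adjusted p = 0.241), and with only the groups compared (adjusted p = 0.102). In oligodendrocytes it was lost without aged AAV-EGFP replicates 2 or 3, each aged AAV-B3GNT3 replicate or young AAV-EGFP replicate 1 (log2 −1.24 to −0.99 without each library, highest adjusted p = 0.123), and also with no filter on low counts (adjusted p = 0.0913), no upper limit on genes (0.0569) and a resolution of 1.0 (0.0679). In oligodendrocyte precursors it was lost without aged AAV-EGFP replicate 2 or aged AAV-B3GNT3 replicates 1 or 2 (highest adjusted p = 0.222). Ribosomal protein UMIs were also highest in the aged AAV-EGFP libraries of each class, for example 1669 to 2263 CPM in astrocytes against 1301 to 1468 in young and 1179 to 1294 in aged AAV-B3GNT3 libraries, and their part in the Cst3 values was not tested. Some sums of markers of other cell types, but not all, stood apart in the other direction. In astrocytes, oligodendrocyte markers were at 241 to 340.1 CPM in aged AAV-EGFP against 422 to 568 in young and 382 to 419.5 in aged AAV-B3GNT3 libraries, and precursor markers at 121 to 142 against 232 to 274 and 186 to 239 CPM. In excitatory neurons, oligodendrocyte markers were at 109.6 to 141 against 188 to 228 and 187 to 226 CPM, and in oligodendrocytes, precursor markers at 99.2 to 167 against 229 to 302 and 178 to 273 CPM. The part of these in the Cst3 values was not tested either. Mitochondrial UMIs in astrocytes overlapped between the groups, at 167 to 368 CPM in aged AAV-EGFP, 238 to 281 in young and 183 to 218 in aged AAV-B3GNT3 libraries.

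**Figure D4:**
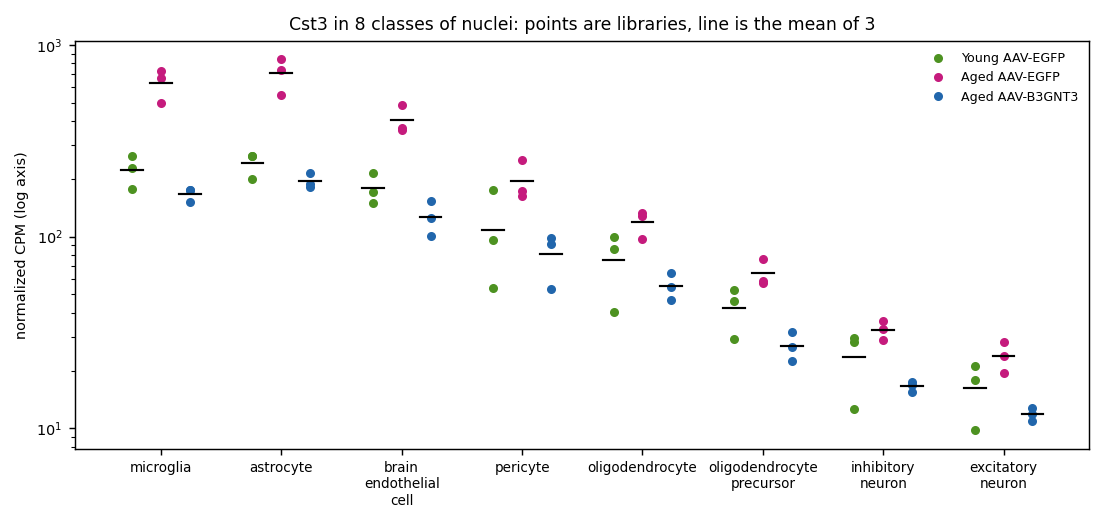
Cst3 level (normalized CPM, log axis) in 8 classes of nuclei; points are libraries coloured by group and lines the mean of 3. The aged AAV-B3GNT3 points lie below the aged AAV-EGFP points in every class, from 496 to 730 against 152 to 176 CPM in microglia to 19.3 to 28.1 against 11.0 to 12.7 CPM in excitatory neurons.

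Whether the change in microglia differed from that in other cells was tested as an interaction within libraries. With age Cst3 rose by log2 0.81 more in microglia than in excitatory neurons (SE 0.22, adjusted p = 0.0251), where the median over 16729 genes was −0.11 and 2.93% were called. This difference was 0.44 without young AAV-EGFP replicate 2 (adjusted p = 0.599) and 0.57 without aged AAV-EGFP replicate 3 (adjusted p = 0.236), and DESeq2 gave 0.84 (adjusted p = 0.168). The call was also lost with no upper limit on genes (log2 0.84, adjusted p = 0.188), without nuclei under 1000 UMIs (log2 0.81, adjusted p = 0.0693) and with the mixed cluster (log2 0.82, adjusted p = 0.671). It was made in 15 of 22 alternatives. With B3GNT3 the difference was −0.82 (SE 0.22, adjusted p = 0.0772), with 0.353% of genes called. It passed in 11 of 22 alternatives (log2 −0.96 to −0.82, and −0.96 to −0.58 over all 22). Among them were no doublet removal (adjusted p = 0.00206), no filter on low counts (0.00552), another scaling (0.0168) and a resolution of 1.0 (0.0113). Against astrocytes the difference of Cst3 was −0.10 with age (SE 0.23, adjusted p = 0.937) and −0.02 with B3GNT3 (SE 0.22), so a difference between these classes was not detectable. Against oligodendrocytes it was 0.79 and −0.77 (adjusted p = 0.356 and 0.528). Of all genes, 1.33 and 0.127% were called against oligodendrocytes and 1.16 and 0.189% against astrocytes, with age and with B3GNT3. No other member was called against any of these 3 classes in either comparison.

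Other members were called in other classes. Ctsl was called higher with age in astrocytes, excitatory neurons and oligodendrocytes (log2 0.93, 0.83 and 0.92, adjusted p = 0.0263, 0.0296 and 0.0225), where 4.86, 7.60 and 10.6% of genes were called higher. Its astrocyte libraries were at 17.6, 19.2 and 17.8 CPM in young, 19.3, 34.5 and 48.9 CPM in aged AAV-EGFP and 16.3, 17.0 and 20.2 CPM in aged AAV-B3GNT3. The rise of Ctsl in astrocytes rests on aged AAV-EGFP replicates 2 and 3, and without replicate 3 it was log2 0.62 (adjusted p = 0.160). With B3GNT3 Ctsl was lower in astrocytes (log2 −0.97, SE 0.26, adjusted p = 0.0415), though its groups overlapped. Ctsz was lower with B3GNT3 in astrocytes (log2 −1.48, SE 0.33, adjusted p = 0.0220), at 11.3, 18.0 and 16.3 CPM in aged AAV-EGFP against 7.11, 6.41 and 2.06 CPM in aged AAV-B3GNT3 libraries. Of all genes in astrocytes, 2.85% were called lower with B3GNT3, and for 12.3% the groups lay apart with the treated lower. Ctsb was higher with age in pericytes (log2 1.39, SE 0.40, adjusted p = 0.0376), where 3.45% of genes were called higher, at 68.6 to 92.1 CPM against 18.4 to 40.4 CPM, from 4 to 16 UMIs per library. It passed the filter on low counts only through the aged AAV-EGFP libraries, where it was high, so this call is a description. The call was lost with no filter on low counts (adjusted p = 0.120) and by DESeq2 (adjusted p = 0.199). Ctss in oligodendrocytes was called higher with age (log2 1.41, SE 0.46, adjusted p = 0.0465) at 2.81 to 5.76 CPM against 0.586 to 2.48 CPM, from 2 to 24 UMIs per library. Ctss too passed the filter there only with the aged AAV-EGFP libraries counted, where it was high, so this call is a description. DESeq2 did not call it (adjusted p = 0.0647). In the same oligodendrocyte sums Tyrobp, at 0 to 11 UMIs per library, was too sparse for the test. It was also higher in each aged AAV-EGFP library (1.03 to 2.64 CPM) than in the young (0 to 0.910 CPM) and aged AAV-B3GNT3 libraries (0.133 to 0.397 CPM). Of all genes tested there, 16.0% lay apart with the treated lower. The 8 microglia markers together were at 51.1 to 67.2 CPM in aged AAV-EGFP and 53.4 to 72.4 CPM in young libraries, which overlap, and at 69.6 to 74.9 CPM with B3GNT3. Free RNA was estimated for microglia only, so its part in the Ctss value in oligodendrocytes was not tested. Each of these calls was lost without some single library: Ctsl in astrocytes held without 4 of 9 libraries with age (log2 0.62 to 1.22) and 3 of 9 with B3GNT3 (−1.23 to −0.63), in excitatory neurons without 4 (0.72 to 1.01) and in oligodendrocytes without 6 (0.72 to 1.07). Ctsz in astrocytes held without 6 (−1.73 to −1.18), Ctss in oligodendrocytes without 2 (1.10 to 2.15) and Ctsb in pericytes without 4 (1.14 to 1.78).

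**Figure D5:**
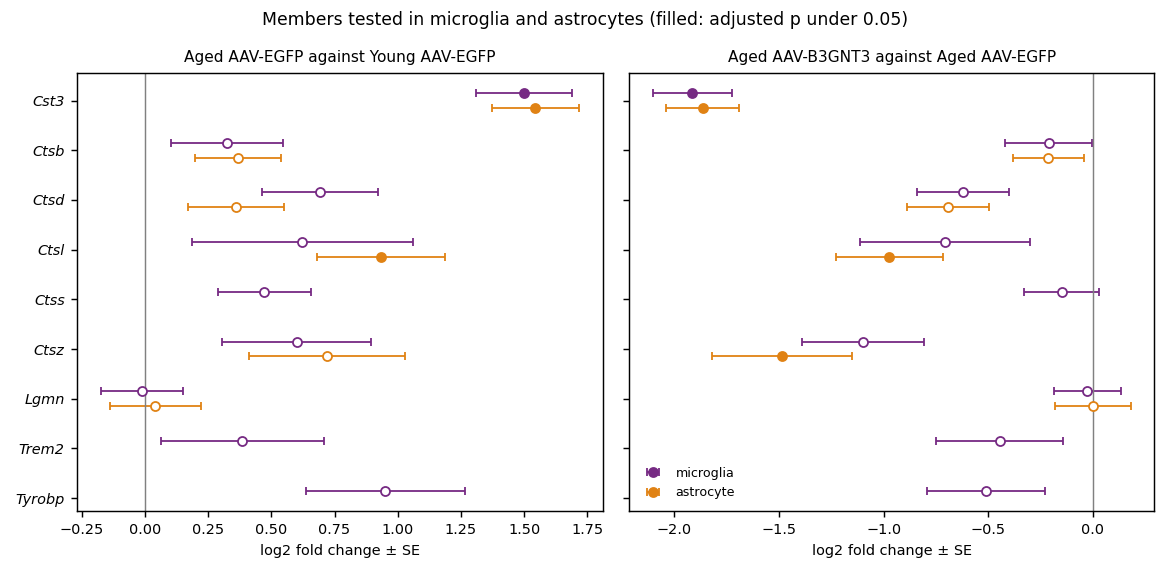
Log2 fold change ± SE (horizontal axes) of the 9 members tested in microglia and the 6 tested in astrocytes, for aged against young AAV-EGFP on the left and aged AAV-B3GNT3 against aged AAV-EGFP on the right; filled points have an adjusted p under 0.05. Cst3 stands at 1.499 and 1.54 on the left and −1.91 and −1.87 on the right.

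The rest of the lysosome was read from lists of other genes in the same microglia fit. Over all genes, 1.62% were called higher with age and 0.133% lower with B3GNT3, the groups lay apart with the aged higher for 12.1%, and with the treated higher for 7.89% and lower for 8.69%. The medians over all genes were −0.01 and 0.02. Of 35 other hydrolases and activators 26 were tested, and 0 were called in either comparison, with medians of log2 0.31 with age and −0.11 with B3GNT3. The groups lay apart for 7 of the 26 with the aged higher, and for 2 with the treated higher and 2 lower. Psap, the precursor of the saposins, had log2 differences of 0.53 (SE 0.22, adjusted p = 0.191) and −0.21 (SE 0.22, adjusted p = 0.784). With age it passed in 1 of 23 alternatives, without aged AAV-EGFP replicate 1 (log2 0.76, adjusted p = 0.0146). Of 14 membrane proteins and regulators 13 were tested and 0 called, with medians of 0.15 and 0.09. The groups lay apart for 5 with the aged higher, and for 0 with the treated higher and 2 lower. Lamp2, a major membrane glycoprotein, had 0.43 (SE 0.21, adjusted p = 0.260) with age, and the transcription factor Mitf −0.30 (SE 0.16, adjusted p = 0.306). Of 17 subunits of the V-ATPase, the proton pump that acidifies lysosomes, 14 were tested and 0 called, with medians of 0.13 and −0.07. The groups lay apart for 3 with the aged higher, and for 3 with the treated higher and 3 lower. Atp6v0b was at 184, 240 and 165 CPM in young, 298, 270 and 246 CPM in aged AAV-EGFP and 132, 176 and 144 CPM in aged AAV-B3GNT3 libraries, and the difference with B3GNT3 was log2 −0.84 (SE 0.19, adjusted p = 0.0669). It passed in 4 of 23 alternatives: no filter on low counts (adjusted p = 0.0114), no doublet removal (0.0349), the members kept among the variable genes (0.0422) and without aged AAV-EGFP replicate 3 (0.0475). Atp6v0a1 had log2 differences of 0.12 (SE 0.18, adjusted p = 0.752) and −0.32 (SE 0.17, adjusted p = 0.528).

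Of 22 other disease-state genes analysed, only 8 had enough counts, and 3 of the 8 rose with age, where 1.62% of all genes were called higher. Apoe, a lipid carrier, was at 75.8, 72.6 and 39.4 CPM in young, 218, 153 and 138 CPM in aged AAV-EGFP and 74.7, 78.3 and 94.7 CPM in aged AAV-B3GNT3 libraries. It rose with age (log2 1.38, SE 0.26, adjusted p = 0.0152), and the aged groups did not overlap (log2 −1.03, SE 0.24, adjusted p = 0.0792). This difference with B3GNT3 passed in 4 of 23 alternatives (lowest adjusted p = 0.00735, with no filter on low counts). Fth1, the ferritin heavy chain, was at 66.6, 101 and 86.6 CPM, 244, 339 and 163 CPM, and 48.3, 67.6 and 109 CPM in the same order. It rose with age (log2 1.56, SE 0.32, adjusted p = 0.0267) and was the 1 gene of the list called with B3GNT3 (log2 −1.71, SE 0.30, adjusted p = 0.0365), where 0.133% of all genes were called lower. That call held in 11 of 23 alternatives. Besides single libraries, it was lost with only the groups compared (adjusted p = 0.121), the replicate block (0.0594), free RNA subtracted (0.0964), without nuclei under 1000 UMIs (0.0522), without barcodes of more than 1 library (0.0515) and with the mixed cluster (0.397). In these settings the log2 difference of Fth1 was −1.73 to −1.62. Cd9, a tetraspanin, rose with age (log2 1.32, SE 0.31, adjusted p = 0.0365) and had log2 −0.45 with B3GNT3 (SE 0.27, adjusted p = 0.566). Its call with age held in 14 of 23 alternatives. It was lost also with only the groups compared (log2 1.35, adjusted p = 0.0759) and without nuclei under 1000 UMIs (log2 1.27, adjusted p = 0.0556). The median of the 8 was log2 0.85 with age and −0.46 with B3GNT3. The more specific markers of the disease-associated state were nearly absent: Cst7 had 4 UMIs, Spp1 6, Gpnmb 3, Lgals3 6, Itgax 15 and Lpl 25 UMIs over all microglia.

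Fth1 lost its call with age without aged AAV-EGFP replicate 2 or any 1 of the young libraries (log2 1.27 to 1.81 without each library), and its call with B3GNT3 without aged AAV-EGFP replicate 2, aged AAV-B3GNT3 replicates 1 or 2 or any 1 of the young libraries (log2 −2.07 to −1.43). Apoe lost its call without young AAV-EGFP replicates 2 or 3 (log2 1.48 and 1.17), and Cd9 without aged AAV-B3GNT3 replicates 2 or 3 or any 1 of the young libraries (log2 1.04 to 1.62). Of 13 genes of Trem2 and Tyrobp signalling 12 were tested, and Apoe, which is in both lists, was the 1 called with age (1.62% of all genes were called higher), with 0 called with B3GNT3 and medians of 0.23 and −0.12. Of 13 homeostatic genes all were tested. P2ry12, a purine receptor that is also one of the 8 cluster markers, was at 740, 556 and 504 CPM in young and 1104, 1191 and 1313 CPM in aged AAV-EGFP libraries and was the 1 called with age (log2 0.997, SE 0.19, adjusted p = 0.0145), against the same 1.62% of all genes. That call was lost without young AAV-EGFP replicates 2 or 3 (log2 0.95 and 0.88). With B3GNT3 edgeR called 0 homeostatic genes, where 0.133% of all genes were called lower and 0.0267% higher. The groups lay apart for 3 of the 13, with the treated lower (8.69% of all genes), and the median log2 difference was −0.21 against 0.02 over all genes.

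Genes most like the 9 tested members over the 9 microglia sums were found by Pearson's r with the members' mean z-score among 1891 genes. They included Csf1r (r = 0.95), a growth factor receptor that microglia need to survive, Nf1 (r = 0.92), Ints6l (r = 0.91) and Ifitm10 (r = 0.90). Csf1r is among the markers that defined the microglia cluster, whose summed level also differed between libraries. Among the members themselves, r ran from −0.32 for Ctsb and Lgmn to 0.77 for Ctss and Tyrobp, and Cst3 had its highest values with Ctsd (r = 0.74) and Ctsz (r = 0.73). The points share depth and makeup of each library.

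A separate unnamed cluster of 309 nuclei with Mrc1, F13a1 and Cd163 among its leading genes, which mark border macrophages, held the same members at other levels, summed over all libraries. Its mean doublet score was 0.473 (0.0592 for the microglia cluster), and the values of this cluster are CPM without TMM scaling. Ctsb was at 180 CPM there, Lgmn at 228, Ctss at 177 and Trem2 at 17.6. Cst3 was at 117 ± 82.9 CPM in young, 215 ± 82.0 in aged AAV-EGFP and 56.6 ± 13.5 for aged AAV-B3GNT3 libraries (SD, n = 3). With 112 Cst3 UMIs in all and 17 to 50 nuclei per library, these were not tested.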

How the data were processed

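The deposited matrices hold raw UMI counts for each gene and barcode. Per the methods, the authors aligned reads to GRCm38 (mm10) and counted them with Cell Ranger. The submitters' notes name version 4.0.0 and the matrix headers 7.2.0. Whether intronic reads were counted is not given in the sources used here. Each library is 1 mouse. The members and gene lists were chosen with earlier results of these data known.

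Limits of 200 to 5000 genes and 10% mitochondrial UMIs left 74895 of 77823 barcodes, and 70293 remained after removal of likely doublets at 0.8% per 1000 barcodes by a score from simulated doublets. Of barcode sequences, 734 were in more than 1 library. Clusters (scanpy 1.11.5, 2000 variable genes without the members, 15 components, resolution 0.3) were named from at least 3 markers. Limits that left 2 clusters unnamed (over 50% of own markers required, mean doublet score up to 0.7) were set after clusters were seen. UMIs were summed per library and class, filtered (filterByExpr, minimum count 10), TMM-scaled and fitted in edgeR 4.0.16 with all 9 libraries (quasi-likelihood, two-sided, Benjamini-Hochberg over all genes tested, threshold 0.05). SE was derived from the F statistic. The interaction fit blocked on library. P-values over 3 mice per group measure only the spread between these libraries. Thinned shares are expected values for a draw of 1000 UMIs. DESeq2 1.42.0 was an alternative, and fits were tested on simulated counts.

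Named genes were the members, up to 3 called genes per list and direction or else the 2 highest by CPM, and the 5 most correlated genes; 1 gene that this rule names is not reported here. Same-numbered libraries deviated together (r over 0.1) in 1 of 9 pairs, so numbers were not taken to pair them.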

Additional observations from a re-analysis of the deposited data

Results flagged for a closer look

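The rise of Cst3 with age was larger in microglia than in excitatory neurons by log2 0.81 in the test of the difference itself (SE 0.22, adjusted p = 0.0251 by edgeR's quasi-likelihood interaction fit). Without each library in turn it ran from 0.44 to 1.09 and was called in 7 of 9, and over all 22 alternatives it was called in 15. The call was lost by DESeq2 (log2 0.84, adjusted p = 0.168), with no upper limit on genes (log2 0.84, 0.188), without nuclei under 1000 UMIs (log2 0.81, 0.0693) and with the mixed cluster (log2 0.82, 0.671). It was lost too against oligodendrocytes (log2 0.79, adjusted p = 0.356) and without aged AAV-EGFP replicate 3 (log2 0.57, 0.236) or young AAV-EGFP replicate 2 (log2 0.44, 0.599). Against astrocytes the same difference was −0.10 (SE 0.23, adjusted p = 0.937). Groups of 3 were not screened for outlying libraries. In microglia the counts of aged AAV-EGFP replicates 1 and 3 differed most (chi-square divided by its degrees of freedom 5.46, against 1.79 to 3.32 for the other pairs within groups).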

How the results depend on the processing

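Cst3 in microglia was called in 22 of 23 alternatives in each comparison, at log2 1.32 to 1.64 with age and −2.05 to −1.67 with B3GNT3, the exception being the mixed cluster, added after seeing the data, as was the omission of barcodes found in more than 1 library. The counts of all genes called depended more on the settings, and the causes were not tested. With age 214 genes were called in microglia. This was 691 with no filter on low counts, 664 with no doublet removal, 83 with no upper limit on genes, 412 with the members kept among the variable genes, 41 with only the groups compared, 30 with free RNA subtracted, 113 without nuclei under 1000 UMIs, 0 with the mixed cluster (1090 at an unadjusted p under 0.05 by edgeR) and 22 to 765 without 1 library. With B3GNT3 12 were called, against 28 by DESeq2, 161 with no filter, 143 with no doublet removal, 60 with the members kept, 4 with only the groups compared, 5 with free RNA subtracted, 0 with the mixed cluster (528 unadjusted) and 2 to 111 without 1 library. Between aged AAV-B3GNT3 and young 0 were called, against 6 by DESeq2, 96 with no filter, 116 with only the groups compared, 3 with free RNA subtracted and 0 to 67 without 1 library. The interaction with excitatory neurons called 490 genes with age, against 311 by DESeq2, 178 with oligodendrocytes as the reference, 0 with the mixed cluster (1303 unadjusted) and 251 to 896 without 1 library. With B3GNT3 it called 59, against 35 by DESeq2, 90 with no filter, 483 with no doublet removal, 20 with no upper limit on genes, 149 at a resolution of 1.0, 285 with the members kept, 19 with only the groups compared, 17 with oligodendrocytes, 0 with the mixed cluster (607 unadjusted) and 19 to 458 without 1 library.

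The replicate number as a block gave 118 genes with age in microglia, 11 with B3GNT3 and 0 in the third comparison; 4 of 9 libraries correlated best with their own number. Under the block Fth1 lost its call with B3GNT3 (adjusted p = 0.0594) in microglia, while Cst3 with age in excitatory neurons and oligodendrocytes (adjusted p = 0.0390 and 0.0114) and with B3GNT3 in excitatory neurons (adjusted p = 0.0251) gained one. Among the members in microglia, Ctsd passed with age in 3 alternatives, Tyrobp and Ctss in 1 each, and Ctsz with B3GNT3 in 2. The sign of small values turned. Lgmn with age was 0.017 with only the groups compared, 0.022 without macrophage marker nuclei, 0.0027 without shared barcodes and −0.13 to 0.14 without 1 library. Lgmn with B3GNT3 was 0.13 with free RNA subtracted, 0.34 with the mixed cluster and −0.096 to 0.091 without 1 library. Ctss with B3GNT3 was 0.018 with free RNA subtracted. Without 1 library, Atp6v0a1 with age was −0.022 to 0.21, Psap with B3GNT3 −0.43 to 0.066 and Lamp2 with B3GNT3 −0.26 to 0.069. In other classes, Ctsl was called in 15 of 20 alternatives with age and 13 of 20 with B3GNT3 in astrocytes, Ctsz in 17 of 20 there, Ctss in oligodendrocytes in 7 of 20 and Ctsb in pericytes in 6 of 14. The Cst3 share of nuclei differed by 21.1 percentage points with age and −25.9 with B3GNT3 at 1000 UMIs per nucleus, and by 13.96 and −16.8 at 500. Cd68 at 0 to 9 UMIs per library could not be judged at this depth.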
